A study of Mus musculus with 6 samples.

Results

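The Wnt ligands, receptors, antagonists and core transducers were followed in RNA from mononuclear cells of tumour-bearing mouse muscle. They were taken by gene symbol: every row named Wnt, Fzd, Dkk, Sfrp or Rspo followed by a digit, with 17 further genes given by name, from Lrp5, Lrp6, Ror1, Ror2 and Ryk to the Tcf and Lef factors. This found 51 of the 17030 genes in the table, 14 Wnt ligands, 3 R-spondins, 10 Frizzled receptors, 5 co-receptors, 2 Lgr receptors, 2 membrane ubiquitin ligases, 3 Dkk, 4 Sfrp and 1 Wif1 antagonist, 3 intracellular transducers and 4 transcription factors. Of these, 43 reached at least 1 CPM (reads per 1000000 assigned reads) in at least 3 of the 6 libraries and were tested, and 8 were too low to test.

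In 3 mice, called Pax7-CreERT here, IKKb was floxed and a tamoxifen-activated Cre was driven by Pax7, the transcription factor of muscle satellite cells. In the other 3 mice, the controls, IKKb was floxed and there was no Cre. All 6 were male C57BL/B6 mice bearing LLC tumours (Lewis lung carcinoma, a transplantable mouse tumour used to study cachexia), and all received tamoxifen on days 10 to 14 after the tumour cells were injected; their age is not given in the sources used here. IKKb, the product of Ikbkb, is the kinase that releases canonical NF-kB. The comparison asks what removing it from Pax7-expressing cells does to the transcripts of the muscle's mononuclear cells. No group had Cre without floxed alleles, so an effect of Cre itself and one of the deletion cannot be told apart.

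Wnt proteins are secreted, lipid-modified signals that bind Frizzled receptors. In the canonical branch they also bind Lrp5 or Lrp6, which stops the Axin scaffold from marking beta-catenin (Ctnnb1) for destruction, and beta-catenin then acts with the Tcf and Lef factors in the nucleus. In the non-canonical branches Wnt5a and its relatives act through Ror1, Ror2, Ryk and planar polarity proteins. R-spondins bind Lgr receptors and keep the ligases Znrf3 and Rnf43 from removing Frizzled, Dkk2 binds Lrp5 and Lrp6, and Sfrp proteins and Wif1 bind the ligands. In muscle, Wnt signals are known to act on satellite cells and on fibro-adipogenic progenitors during repair.

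Depth was estimated at 4913000 to 13360000 reads in Pax7-CreERT and 4054000 to 7423000 reads in control libraries. Control replicate 3 was the shallowest and had 12.6% of its CPM in haemoglobin genes, while the other 5 libraries had 1.84% to 4.83%. Ikbkb measured 51.4, 48.4 and 52.7 CPM in Pax7-CreERT replicates 1, 2 and 3 and 51.3, 57.4 and 48.8 CPM in control replicates 1, 2 and 3, and these gene-level values from mixed cells do not resolve the floxed part of the gene in the cells that carry Cre. The markers fixed for satellite cells summed to 42.1 to 50.1 CPM in Pax7-CreERT and 39.4 to 50.1 CPM in control libraries. Those of endothelial cells summed to 4453 to 5474 CPM in Pax7-CreERT and 4271 to 5696 CPM in control libraries, and those of fibro-adipogenic progenitors to 2228 to 4031 CPM in Pax7-CreERT and 2207 to 3710 CPM in control libraries. Mural cell markers were at 8473 to 10653 CPM in Pax7-CreERT and 6533 to 8463 CPM in control libraries, without overlap. Myofibre markers were higher in every Pax7-CreERT library, at 1001, 536 and 473 CPM, against 348, 452 and 274 CPM in the control libraries. Schwann cell markers were also higher in each, at 999, 1244 and 974 CPM in Pax7-CreERT and 927, 961 and 893 CPM in control libraries. Summed adipocyte markers were lower in each Pax7-CreERT library, at 130, 113 and 123 CPM, against 149, 175 and 141 CPM in control libraries. Most of each sum came from Lipe, and Lipe, Adipoq, Plin1 and Cidec all overlapped between the groups as single genes. Values follow replicates 1, 2 and 3 in each group. A fold change is the Pax7-CreERT mean less the control mean of log2(CPM + 1), and p-values come from limma with Benjamini-Hochberg adjustment over the 14763 genes tested.

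The start regions of 34 of the 51 genes were matched in RefSeq (GRCm38.p6). Each was 300 bases long, 250 before and 50 after the start, and the median GC content was 69.5%, against 59.7% over 13334 genes of the table. The TCF/LEF core CTTTGAT was searched on both strands because beta-catenin acts through it, and was present in 1 of the 34 windows, that of Wnt11, or 2.94%, against 2.68% of all 13334. The NF-kB consensus was searched on both strands because IKKb controls that factor, and was present in Rspo1 and Wnt10b, or 5.88%, against 5.16% of all windows. The Wnt11 match begins 51 bases before the start, on the strand opposite to the gene, and that window is not shown. The windows of Rspo1 and Wnt10b are shown, with that of Wnt5b, the member with the largest fold change, which has neither motif. Each is written 5′ to 3′ on the gene's strand and ends at the start site, except that of Rspo1, which runs on to the end of overlapping matches that span its start. Capitals mark bases in a match.
Rspo1, chr4:124986180-124986437, + strand: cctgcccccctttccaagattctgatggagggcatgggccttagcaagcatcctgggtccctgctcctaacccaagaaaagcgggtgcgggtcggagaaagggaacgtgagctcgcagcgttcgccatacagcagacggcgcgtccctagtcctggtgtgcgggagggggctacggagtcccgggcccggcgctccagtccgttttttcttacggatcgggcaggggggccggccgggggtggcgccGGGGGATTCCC
Wnt10b, chr15:98778151-98778400, - strand: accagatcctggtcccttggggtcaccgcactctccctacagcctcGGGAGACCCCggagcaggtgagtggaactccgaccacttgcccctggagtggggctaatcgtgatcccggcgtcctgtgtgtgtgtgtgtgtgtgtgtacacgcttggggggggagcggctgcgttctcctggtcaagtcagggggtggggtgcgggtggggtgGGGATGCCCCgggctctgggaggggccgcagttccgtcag
Wnt5b, chr6:119544348-119544597, - strand: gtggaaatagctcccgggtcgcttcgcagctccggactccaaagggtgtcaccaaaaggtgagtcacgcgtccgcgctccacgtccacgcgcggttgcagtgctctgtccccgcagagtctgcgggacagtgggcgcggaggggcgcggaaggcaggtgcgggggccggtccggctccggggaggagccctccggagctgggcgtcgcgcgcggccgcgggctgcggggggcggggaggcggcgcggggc
The Wnt10b window has 1 match on each strand, beginning 204 and 40 bases before the start. A match of letters is a description and does not show that a factor binds there.

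Some members lie side by side in the genome. Wnt6 and Wnt10a are 6.70 kb apart on chromosome 1, and Wnt3 and Wnt9b are 24.4 kb apart on chromosome 11. Dkk4 lies 31.7 kb from Ikbkb itself on chromosome 8. Dkk4 was at 0.105, 0.599 and 0.407 CPM in the Pax7-CreERT libraries, against 0.669, 0.539 and 0.740 CPM in the control libraries, which is 1 to 8 estimated reads, and it was not tested.

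Levels between genes were compared as CPM per kilobase of merged exon. Beta-catenin stood far above the other members, with Ctnnb1 at 105 to 152 CPM per kilobase over the 6 libraries. Next was Fzd4, the Frizzled of blood vessel endothelium, at 38.1 to 57.9 CPM per kilobase. Its range was above that of Fzd6 (22.7 to 28.5), and Fzd6 was above Fzd7 (13.1 to 16.0). Fzd8, Fzd1 and Fzd5 followed with ranges that overlapped, between 5.96 and 11.1 CPM per kilobase. Lrp6, the canonical co-receptor, lay at 16.1 to 22.9 CPM per kilobase, above its relative Lrp5 (7.73 to 11.8).

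Every Wnt ligand lay below Fzd1, Fzd2, Fzd4, Fzd5, Fzd6, Fzd7 and Fzd8 in range. The ligand highest per length was Wnt9a at 2.14 to 3.36 CPM per kilobase, and Wnt2b (1.51 to 2.20), Wnt5a (0.809 to 2.57) and Wnt4 (0.765 to 1.91) followed with overlapping ranges. Among secreted antagonists Sfrp5 stood at 21.2 to 31.8 CPM per kilobase and Sfrp4 at 9.45 to 21.4, each above every ligand in range. The R-spondin receptor Lgr4 measured 5.95 to 7.71 CPM per kilobase, while Lgr5 reached at most 0.174 and was listed at 0 in control replicate 3. Lef1, the factor induced by canonical signals in many tissues, lay at 0.0842 to 0.162 CPM per kilobase and under Tcf7, Tcf7l1 and Tcf7l2, whose ranges overlapped one another between 1.16 and 4.34.

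**Figure D1:**
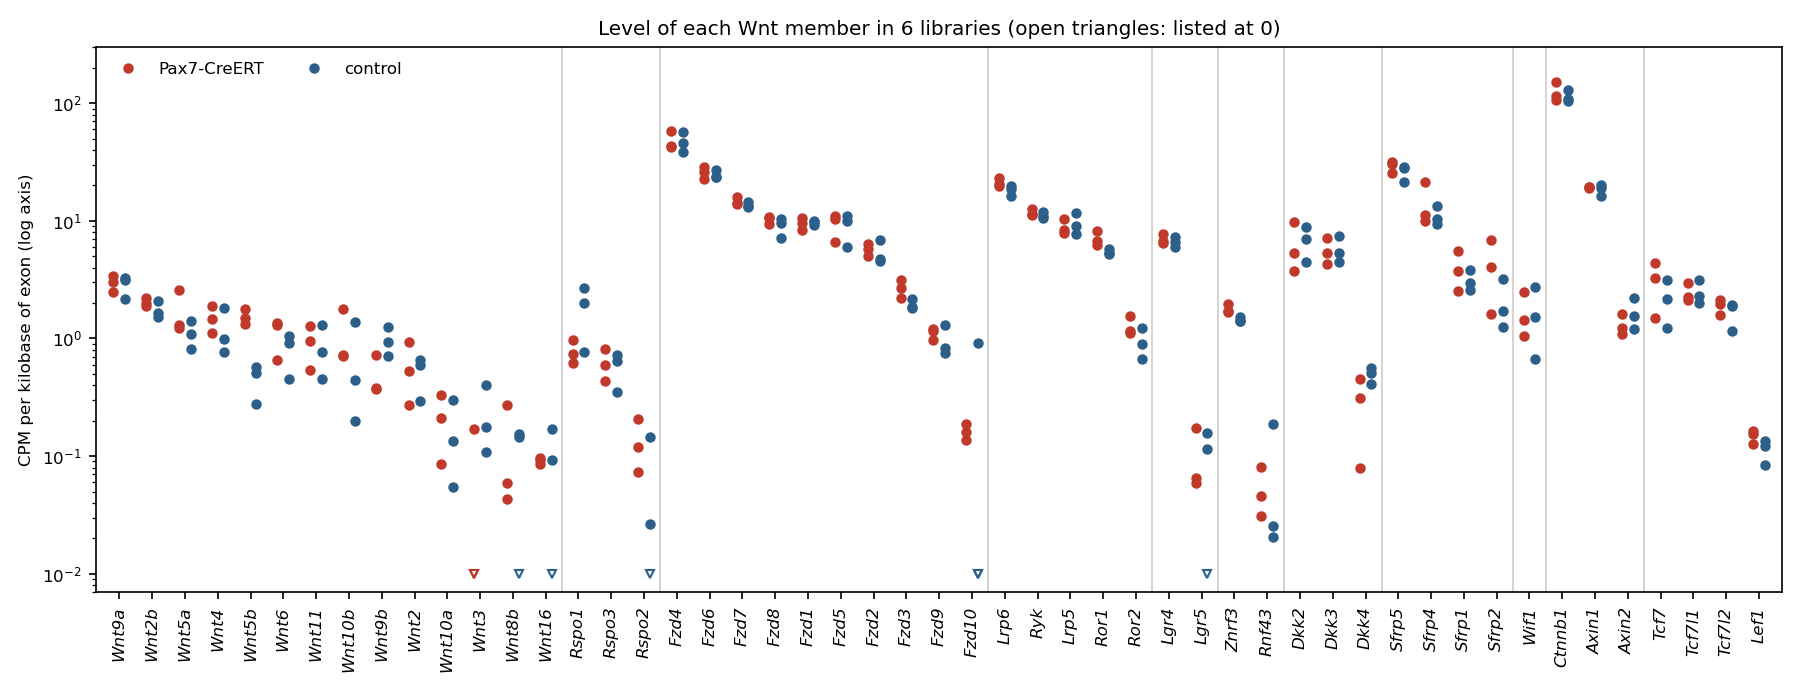
Level of the 51 members in CPM per kilobase of merged exon on a log axis, 1 point per library, Pax7-CreERT left of control, in order of role. Ctnnb1, Fzd4, Fzd6, Sfrp5, Axin1 and Lrp6 stand highest, and 5 of the 8 genes too low to test and Lgr5 have libraries listed at 0 (open triangles).

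No Wnt gene passed the test between Pax7-CreERT and control mice. Of the 43 tested, 0 had an adjusted p under 0.05 with limma (range 0.891 to 0.991), against 1 gene, or 0.00677%, of all 14763. At an unadjusted p under 0.05 there were 3 higher members, Wnt5b, Fzd3 and Ror1, or 3 of 43 against 4.58% of all genes, and 1 lower member, Wnt9b, or 1 of 43 against 0.942%. In 4 members, Wnt5b, Fzd3, Ror1 and Znrf3, every Pax7-CreERT library lay above every control library, which is 9.30% against 8.69% of all genes tested. In 0 members did every Pax7-CreERT library lie below every control, against 2.28% of all genes. The share of members without overlap is close to the background. The summed myofibre, mural cell, Schwann cell and adipocyte markers also did not overlap between the groups, and their part in these differences was not tested.

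The fold change was above 0 in 35 of the 43 (81.4%) and below 0 in 8, with a median of 0.13, against 68.0% and a median of 0.089 over all genes tested. With TMM scaling, which brought the median of all genes to 0.0035, the members divided into 28 above and 15 below 0, with a median of 0.049. In exact 2-sided permutation tests on single members, 3 libraries against 3 cannot give a p under 0.1. RNA here is from mixed cells, so fewer cells of a type and less RNA per cell cannot be told apart in any of these values.

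**Figure D2:**
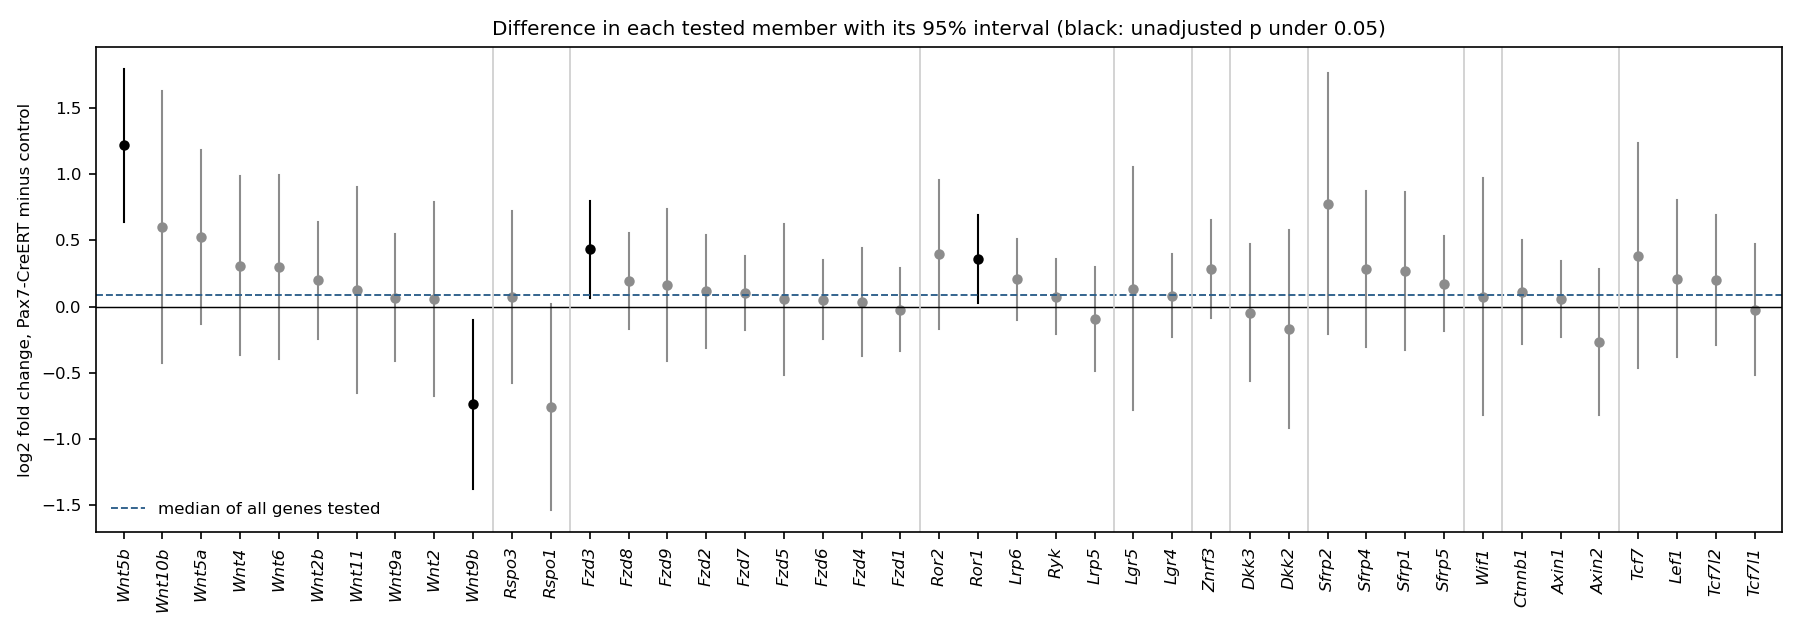
Log2 fold change of the 43 tested members, Pax7-CreERT minus control, with its 95% interval from limma, in order of role; the dashed line is the median of all genes tested (0.089). The 4 members in black, Wnt5b, Wnt9b, Fzd3 and Ror1, have an unadjusted p under 0.05, and none passed after adjustment.

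Among the ligands, Wnt5b stood apart in size. Wnt5b, a relative of Wnt5a that signals mainly without beta-catenin (chromosome 6, 119432531 to 119544347, minus strand, mm10), measured 3.99, 3.52 and 4.68 CPM in the Pax7-CreERT libraries, against 1.50, 1.35 and 0.740 CPM in the control libraries. The lowest Pax7-CreERT library was above the highest control. The fold change on the log2 scale was 1.22 (SE 0.26, 95% interval 0.64 to 1.79), with an unadjusted p of 8.64e-04 and an adjusted p of 0.891 with limma, and the exact permutation p was 0.1. Group levels were 4.07 ± 0.584 CPM in Pax7-CreERT mice and 1.20 ± 0.404 CPM in controls (SD, n = 3 each). These values rest on few reads, 38, 47 and 23 estimated reads in the Pax7-CreERT libraries and 9, 10 and 3 in the control libraries. The fold change was 1.06 to 1.32 when each library was left out in turn, and the unadjusted limma p was then at most 0.00519. A gene on the opposite strand, Fbxl14, overlaps Wnt5b and shares 0 exon bases with it. Fbxl14 measured 73.1, 79.4 and 81.0 CPM in the Pax7-CreERT libraries, against 69.7, 82.3 and 91.5 CPM in the control libraries, a log2 fold change of -0.053 with overlapping groups.

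Wnt9b, a ligand known from kidney tubule formation, was the member with the smallest p among those that were lower. Wnt9b stood at 1.68, 1.72 and 3.26 CPM in the Pax7-CreERT libraries, against 3.18, 4.18 and 5.67 CPM in the control libraries. Pax7-CreERT replicate 3 reached above control replicate 1, so the groups overlapped (log2 fold change -0.74, SE 0.29, unadjusted p = 0.028, adjusted p = 0.891 with limma, exact permutation p = 0.2). Wnt9b rested on 16, 23 and 16 estimated reads in the Pax7-CreERT libraries and 19, 31 and 23 in the control libraries. Its neighbour Wnt3 was at or under 5 estimated reads in every library and was listed at 0 in Pax7-CreERT replicates 2 and 3.

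Wnt5a, which acts through Ror receptors, measured 20.1, 9.66 and 10.2 CPM in the Pax7-CreERT libraries, against 8.53, 6.33 and 11.1 CPM in the control libraries. Pax7-CreERT replicate 1 stood above the rest, and the other libraries overlapped (log2 fold change 0.52, SE 0.29, unadjusted p = 0.105, adjusted p = 0.896). Without Pax7-CreERT replicate 1 the log2 fold change was 0.21, and 0.34 when control replicate 2 was dropped. Wnt10b, a canonical ligand that restrains fat cell formation, measured 6.10, 2.40 and 2.44 CPM in the Pax7-CreERT libraries, against 1.50, 0.674 and 4.69 CPM in the control libraries (log2 fold change 0.60, SE 0.46, unadjusted p = 0.22, adjusted p = 0.899). Its highest and second highest values were in Pax7-CreERT replicate 1 and control replicate 3. The Wnt10b fold change was 0.25 without Pax7-CreERT replicate 1, 0.21 when control replicate 2 was dropped and 1.09 when control replicate 3 was dropped, with an unadjusted limma p of 0.0148 in the last.

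The other tested ligands had limma adjusted p-values of 0.914 to 0.982 and log2 fold changes between 0.059 and 0.31. Wnt4 averaged 6.25 ± 1.68 CPM in Pax7-CreERT mice and 5.02 ± 2.35 CPM in controls, and Wnt2b 8.53 ± 0.668 CPM in Pax7-CreERT mice and 7.34 ± 1.26 CPM in controls. Wnt9a averaged 9.87 ± 1.45 CPM in Pax7-CreERT mice and 9.45 ± 2.02 CPM in controls, Wnt11 3.82 ± 1.51 CPM in Pax7-CreERT mice and 3.50 ± 1.79 CPM in controls and Wnt6 2.40 ± 0.850 CPM in Pax7-CreERT mice and 1.76 ± 0.685 CPM in controls (SD, n = 3 each). Wnt2 averaged 1.30 ± 0.752 CPM in Pax7-CreERT mice and 1.17 ± 0.435 CPM in controls (SD, n = 3 each). The 4 ligands too low to test, Wnt3, Wnt8b, Wnt10a and Wnt16, reached at most 9 estimated reads in any library.

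Rspo1, an R-spondin known to promote differentiation of muscle progenitors in mice, measured 1.89, 1.20 and 1.42 CPM in the Pax7-CreERT libraries, against 3.84, 1.48 and 5.18 CPM in the control libraries. Control replicates 1 and 3 were above all other libraries, and control replicate 2 lay among the Pax7-CreERT values. The log2 fold change was -0.76 (SE 0.35, unadjusted p = 0.0553, adjusted p = 0.896 with limma; exact permutation p = 0.2), and it was -0.48 without control replicate 3. Leaving out control replicate 2 instead gave -1.14. Rspo3, an R-spondin of blood vessels, averaged 1.90 ± 0.591 CPM in Pax7-CreERT mice and 1.77 ± 0.607 CPM in controls. Rspo2 had 0 to 10 estimated reads and was not tested.

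Of the Frizzled genes, Fzd3, a Frizzled of planar polarity and axon guidance, measured 28.5, 40.0 and 34.2 CPM in the Pax7-CreERT libraries, against 27.7, 23.8 and 23.2 CPM in the control libraries. All Pax7-CreERT values were above all controls, with Pax7-CreERT replicate 1 only just above control replicate 1 (log2 fold change 0.43, SE 0.16, unadjusted p = 0.0252, adjusted p = 0.891 with limma; exact permutation p = 0.1). The fold change was 0.34 with TMM scaling, and the unadjusted limma p was 0.116 without Pax7-CreERT replicate 2.

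Fzd4 measured 293, 389 and 283 CPM in the Pax7-CreERT libraries, against 309, 379 and 256 CPM in the control libraries, and the groups overlapped across nearly their whole range. Its log2 fold change was 0.03 (95% interval -0.37 to 0.44), and -0.058 with TMM scaling. Fzd8 measured 63.6, 64.6 and 56.0 CPM in the Pax7-CreERT libraries, against 57.7, 62.0 and 42.7 CPM in the control libraries, where control replicate 3 was the lowest of the 6 libraries (log2 fold change 0.19, SE 0.16, unadjusted p = 0.257, adjusted p = 0.899 with limma). Dropping that library brought the Fzd8 fold change to 0.035, and dropping control replicate 2 to 0.30. The 6 other tested Frizzled genes, Fzd1, Fzd2, Fzd5, Fzd6, Fzd7 and Fzd9, had log2 fold changes between -0.022 and 0.16 and limma adjusted p-values of 0.927 to 0.985. Fzd6 averaged 124 ± 13.9 CPM in Pax7-CreERT mice and 119 ± 9.18 CPM in controls, and Fzd5 64.2 ± 16.6 CPM in Pax7-CreERT mice and 62.3 ± 18.6 CPM in controls (SD, n = 3 each). Fzd10 had 0 to 12 estimated reads, the most in control replicate 3, and was not tested.

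The co-receptor Ror1, a receptor kinase for Wnt5a, measured 38.9, 47.6 and 35.8 CPM in the Pax7-CreERT libraries, against 30.1, 33.3 and 30.8 CPM in the control libraries. The groups did not overlap, and Pax7-CreERT replicate 2 was the highest (log2 fold change 0.36, SE 0.15, unadjusted p = 0.0373, adjusted p = 0.891 with limma; exact permutation p = 0.1). The unadjusted limma p was 0.167 without Pax7-CreERT replicate 2, and the fold change was 0.27 with TMM scaling. Its relative Ror2 measured 6.62, 4.94 and 4.68 CPM in the Pax7-CreERT libraries, against 2.84, 3.77 and 5.18 CPM in the control libraries, with control replicate 3 among the Pax7-CreERT values (log2 fold change 0.39, SE 0.25, unadjusted p = 0.149, adjusted p = 0.896 with limma). The Ror2 fold change was 0.23 with control replicate 1 dropped and 0.57 with control replicate 3 dropped, where the unadjusted limma p was 0.0481.

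Lrp6 measured 313, 278 and 268 CPM in the Pax7-CreERT libraries, against 272, 254 and 220.1 CPM in the control libraries. Control replicate 1 lay above Pax7-CreERT replicate 3, so the groups overlapped (log2 fold change 0.21, SE 0.14, unadjusted p = 0.161, adjusted p = 0.899 with limma), and with control replicate 3 dropped the fold change was 0.12. Lrp5 averaged 86.1 ± 12.5 CPM in Pax7-CreERT mice and 92.5 ± 20.1 CPM in controls, and Ryk, an atypical kinase-like receptor for Wnt proteins, 53.2 ± 3.66 CPM in Pax7-CreERT mice and 50.5 ± 2.75 CPM in controls (SD, n = 3 each). Their limma adjusted p-values were 0.954 and 0.95.

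Of the genes around R-spondin, Znrf3, the ligase that removes Frizzled from the membrane, measured 13.4, 13.6 and 15.5 CPM in the Pax7-CreERT libraries, against 11.0, 12.1 and 11.1 CPM in the control libraries. The groups did not overlap, and the gap between the nearest libraries was that of Pax7-CreERT replicate 1 and control replicate 2 (log2 fold change 0.28, SE 0.17, unadjusted p = 0.119, adjusted p = 0.896 with limma; exact permutation p = 0.1). Lgr4 measured 39.5, 38.3 and 45.4 CPM in the Pax7-CreERT libraries, against 38.6, 35.0 and 42.4 CPM in the control libraries, overlapping throughout (log2 fold change 0.08, SE 0.14, unadjusted p = 0.564, adjusted p = 0.948 with limma), and its fold change was -0.0067 with TMM scaling and 0.011 to 0.15 when each library was dropped in turn, lowest without Pax7-CreERT replicate 3 and highest without control replicate 3. Lgr5 averaged 1.02 ± 0.662 CPM in Pax7-CreERT mice and 0.929 ± 0.835 CPM in controls, at 0 to 17 estimated reads. Rnf43, the second ligase, had 1 to 5 estimated reads per library and was not tested.

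**Figure D3:**
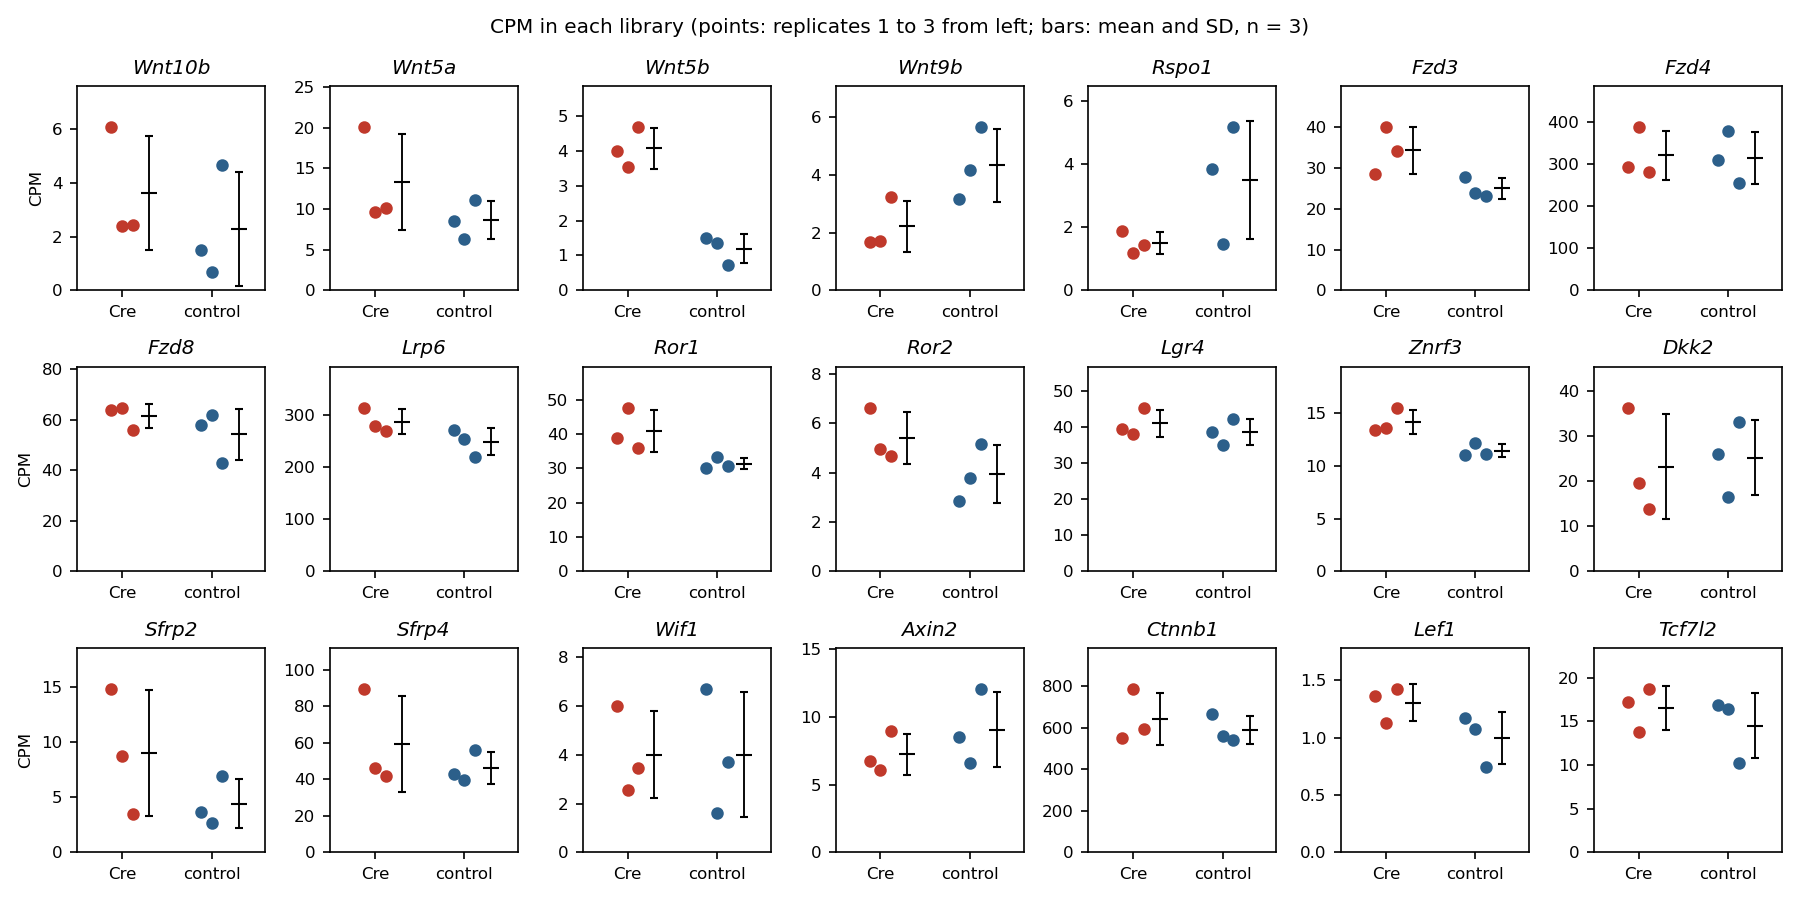
CPM of 21 members in each library, with the 3 Pax7-CreERT mice left of the 3 controls and the mean and SD beside them; each panel has its own axis from 0. The groups do not overlap for Wnt5b, Fzd3, Ror1 and Znrf3, while for Sfrp2, Sfrp4, Wnt5a and Wnt10b Pax7-CreERT replicate 1 is the highest library.

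Among the secreted antagonists, Sfrp2, a Wnt-binding protein of fibroblast-like cells, measured 14.8, 8.76 and 3.46 CPM in the Pax7-CreERT libraries, against 3.68, 2.69 and 6.91 CPM in the control libraries. Pax7-CreERT replicate 1 was the highest library and Pax7-CreERT replicate 3 lay among the controls (log2 fold change 0.78, SE 0.44, unadjusted p = 0.109, adjusted p = 0.896 with limma; 0.36 without Pax7-CreERT replicate 1 and 1.27 without replicate 3). Sfrp4 measured 89.6, 46.5 and 41.7 CPM in the Pax7-CreERT libraries, against 43.1, 39.5 and 56.0 CPM in the control libraries, again highest in Pax7-CreERT replicate 1 (log2 fold change 0.28, SE 0.26, unadjusted p = 0.307, adjusted p = 0.907 with limma). Its fold change was -0.052 without that library. Sfrp1 averaged 17.2 ± 6.68 CPM in Pax7-CreERT mice and 13.6 ± 2.66 CPM in controls, and Sfrp5 55.6 ± 6.62 CPM in Pax7-CreERT mice and 49.4 ± 7.95 CPM in controls (SD, n = 3 each).

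Dkk2, which binds the Lrp co-receptors, measured 36.3, 19.5 and 13.8 CPM in the Pax7-CreERT libraries, against 26.1, 16.6 and 33.1 CPM in the control libraries. Pax7-CreERT replicate 1 and control replicate 3 were the highest libraries, and the groups overlapped (log2 fold change -0.17, SE 0.33, unadjusted p = 0.621, adjusted p = 0.955 with limma). Dkk3, a divergent member of the family, averaged 18.7 ± 4.77 CPM in Pax7-CreERT mice and 19.4 ± 5.04 CPM in controls. Wif1, Wnt inhibitory factor, measured 5.99, 2.55 and 3.46 CPM in the Pax7-CreERT libraries, against 6.69, 1.62 and 3.70 CPM in the control libraries. It ranged 4.14-fold over the 6 libraries, and the group means differed by less than their SD (log2 fold change 0.08, SE 0.40, unadjusted p = 0.854, adjusted p = 0.982 with limma).

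Of the intracellular genes that carry the canonical signal, Ctnnb1 measured 549, 788 and 592 CPM in the Pax7-CreERT libraries, against 666, 559 and 544 CPM in the control libraries, with Pax7-CreERT replicate 2 the highest (log2 fold change 0.11, SE 0.18, unadjusted p = 0.535, adjusted p = 0.945 with limma). Axin1, the constitutive scaffold, averaged 73.4 ± 0.886 CPM in Pax7-CreERT mice and 70.8 ± 7.77 CPM in controls and had a fold change of 0.06. Axin2, the scaffold that beta-catenin induces and a common readout of canonical signalling, measured 6.73, 6.07 and 8.96 CPM in the Pax7-CreERT libraries, against 8.53, 6.60 and 12.1 CPM in the control libraries. Control replicate 3 was the highest, and the other 5 libraries were interleaved (log2 fold change -0.27, SE 0.25, unadjusted p = 0.306, adjusted p = 0.906 with limma, 95% interval -0.82 to 0.29). Without control replicate 3 the fold change was -0.060, and it was -0.45 with control replicate 2 dropped.

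Of the nuclear factors, Lef1 measured 1.37, 1.12 and 1.42 CPM in the Pax7-CreERT libraries, against 1.17, 1.08 and 0.740 CPM in the control libraries (log2 fold change 0.21, SE 0.26, unadjusted p = 0.443, adjusted p = 0.932 with limma), on 3 to 15 estimated reads. Dropping control replicate 3 gave a Lef1 fold change of 0.12. Tcf7l2 measured 17.2, 13.8 and 18.7 CPM in the Pax7-CreERT libraries, against 16.9, 16.4 and 10.2 CPM in the control libraries (log2 fold change 0.20, SE 0.22, unadjusted p = 0.386, adjusted p = 0.922 with limma), and control replicate 3 was again the lowest. Its fold change was -0.019 without that library, which was the lowest of the 6 for 39.85% of all genes tested. Tcf7l2 overlaps Gm31734 on the other strand, and its values are not whole reads. Tcf7, also a T cell factor, averaged 7.94 ± 3.79 CPM in Pax7-CreERT mice and 5.70 ± 2.51 CPM in controls, and Tcf7l1 9.54 ± 1.76 CPM in Pax7-CreERT mice and 9.77 ± 2.34 CPM in controls (SD, n = 3 each). Tcf7 was lowest in control replicate 3 at 3.21 CPM and highest in Pax7-CreERT replicate 3 at 11.4 CPM. The 5 T and NK cell markers in the table, of 7 listed, summed to 5.15, 4.42 and 13.0 CPM in the Pax7-CreERT libraries and to 2.34, 3.10 and 18.3 CPM in the controls, and Cd3e and Cd3g were at 0 in 1 library each; their part in the Tcf7 values was not tested.

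A shared pattern over libraries was seen that did not follow the genotype. For 12 of the 43 tested members (27.9%) the highest 2 libraries were Pax7-CreERT replicate 1 and control replicate 3, against 7.11% of all genes tested; this pair was chosen after the values were seen. The 12 were Dkk2, Dkk3, Sfrp1, Sfrp4, Wnt2, Wnt5a, Wnt10b, Wnt11, Rspo3, Fzd2, Fzd7 and Ror2. Of the 6 fibro-adipogenic progenitor markers, all of them above 0 in every library, the sums were 4031, 2276 and 2228 CPM in the Pax7-CreERT libraries and 2354, 2207 and 3710 CPM in the control libraries. The highest 2 libraries in these sums were the same pair, as they were in each single marker except Lum. Lum was highest in Pax7-CreERT replicates 1 and 2. The 5 tenocyte markers summed to 288, 143 and 127 CPM in the Pax7-CreERT and 187, 87.2 and 215 CPM in the control libraries. That sum was also highest in this pair, and most of it came from Fmod. As single genes Tnmd, Scx, Mkx and Thbs4 did not have this pair as their highest libraries, and Fmod did. Macrophage markers summed to 393, 269 and 288 CPM in the Pax7-CreERT and 191, 236 and 635 CPM in the control libraries. The same pair was highest in this sum and in every single macrophage marker, Adgre1, Csf1r, Cd68, Mrc1, C1qa and C1qb. The part of these cells in the 12 genes was not tested.

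**Figure D4:**
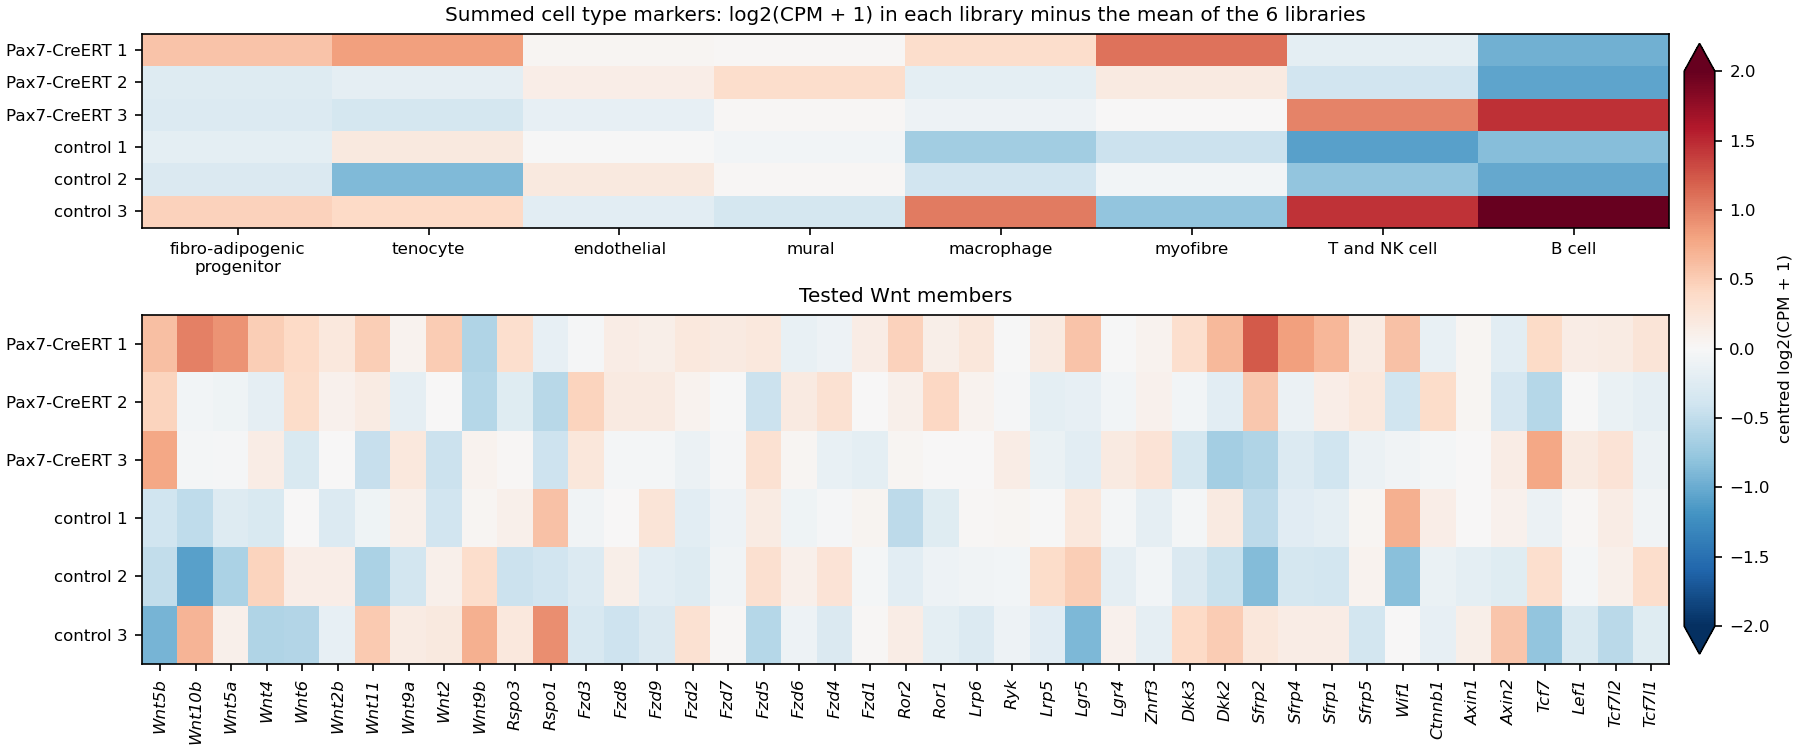
Upper panel: summed CPM of marker lists of 8 cell types; lower panel: the 43 tested members; both as log2(CPM + 1) in each library minus the mean over the 6 libraries (red higher, blue lower). Sfrp4, Sfrp1, Dkk2, Wnt5a and Wnt10b are high in Pax7-CreERT replicate 1 and above their mean in control replicate 3, as are the summed fibro-adipogenic progenitor and tenocyte markers. The summed macrophage markers are also above their mean in both of these libraries, and highest in control replicate 3.

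Other genes of the pathway were read from 5 lists of 88 symbols, of which 81 were in the table and 74 were tested; the rest include Aes, Wisp1 and Wisp2, older symbols of Tle5, Ccn4 and Ccn5, which were tested under these names. With limma 0 of the 74 passed after adjustment, and at an unadjusted p under 0.05 there were 7 higher and 0 lower, against 4.58% and 0.942% of all genes. Their fold change was above 0 in 57 and below 0 in 17, against 68.0% above 0 over all genes, which is the share to set beside each list's count. Their median was 0.16, against 0.089 over all genes, and with TMM scaling 0.074, against 0.0035. For 11 of the 74 every Pax7-CreERT library was above every control, and for 0 every one was below, against 8.69% and 2.28% of all genes tested.

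In the planar polarity and non-canonical list 11 of 15 tested genes had a fold change above 0 and 4 below, with a median of 0.24; 0 passed, and 2 were higher at an unadjusted p under 0.05, where 4.58% of all genes were. Daam1, a formin that links Dishevelled to actin, measured 103, 80.2 and 77.7 CPM in the Pax7-CreERT libraries, against 70.5, 63.5 and 55.3 CPM in the control libraries, without overlap (log2 fold change 0.45, SE 0.15, unadjusted p = 0.0151, adjusted p = 0.891 with limma). Intu, a planar polarity effector of cilia, measured 9.78, 8.69 and 10.8 CPM in the Pax7-CreERT libraries, against 8.36, 6.60 and 5.18 CPM in the control libraries (log2 fold change 0.49, SE 0.21, unadjusted p = 0.0445, adjusted p = 0.896 with limma).

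In the list of secretion and other secreted modulators 13 of 20 genes were tested, 11 above and 2 below 0, with a median of 0.21 and 0 passing. Frzb, the Sfrp relative that binds Wnt ligands, measured 13.9, 13.8 and 13.2 CPM in the Pax7-CreERT libraries, against 11.5, 7.81 and 7.89 CPM in the control libraries (log2 fold change 0.56, SE 0.20, unadjusted p = 0.0177, adjusted p = 0.891 with limma). All Pax7-CreERT values were above all controls. Wls, the carrier that brings Wnt proteins to the cell surface, measured 75.9, 80.6 and 62.1 CPM in the Pax7-CreERT libraries, against 68.0, 53.1 and 59.2 CPM in the control libraries (log2 fold change 0.27, SE 0.15, unadjusted p = 0.101, adjusted p = 0.896 with limma).

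Among transcriptional targets 8 of 12 tested genes were above 0 and 4 below, with a median of 0.20 and 0 passing. Nkd1, a feedback inhibitor induced by canonical signals, measured 10.2, 10.6 and 12.4 CPM in the Pax7-CreERT libraries, against 7.86, 8.62 and 7.15 CPM in the control libraries, without overlap (log2 fold change 0.44, SE 0.18, unadjusted p = 0.0366, adjusted p = 0.891 with limma). Ccnd1, the cyclin D1 gene that many other signals also control, measured 58.2, 108 and 92.7 CPM in the Pax7-CreERT libraries, against 60.8, 54.4 and 77.4 CPM in the control libraries, with wide overlap (log2 fold change 0.39, SE 0.23, unadjusted p = 0.113, adjusted p = 0.896 with limma). The Ccnd1 fold change was 0.21 without Pax7-CreERT replicate 2 and 0.65 without Pax7-CreERT replicate 1. Nkd1 and the feedback member Axin2 had fold changes of opposite sign, and neither passed.

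The 19 genes of the destruction complex and Dishevelled were all tested, 15 above and 4 below 0, with a median of 0.15 and 0 passing. Apc2, an Apc relative of neural tissue, measured 14.8, 16.7 and 18.5 CPM in the Pax7-CreERT libraries, against 12.5, 13.2 and 12.1 CPM in the control libraries (log2 fold change 0.37, SE 0.16, unadjusted p = 0.047, adjusted p = 0.896 with limma), and Btrc, the ligase adaptor that marks beta-catenin, 45.6, 48.9 and 48.8 CPM in the Pax7-CreERT libraries, against 40.3, 41.8 and 39.0 CPM in the control libraries (log2 fold change 0.24, SE 0.12, unadjusted p = 0.0837, adjusted p = 0.896 with limma). In both the groups did not overlap. Of 15 nuclear cofactors tested 12 were above 0 and 3 below, with a median of 0.15 and 0 passing. Pygo1, a beta-catenin cofactor, measured 17.7, 15.3 and 12.2 CPM in the Pax7-CreERT libraries, against 8.86, 8.35 and 12.8 CPM in the control libraries (log2 fold change 0.55, SE 0.22, unadjusted p = 0.0288, adjusted p = 0.891 with limma). Tbl1x, a corepressor exchange factor, measured 26.2, 28.2 and 31.8 CPM in the Pax7-CreERT libraries, against 23.6, 24.0 and 16.0 CPM in the control libraries (log2 fold change 0.44, SE 0.18, unadjusted p = 0.0394, adjusted p = 0.891 with limma), and its fold change was 0.26 with control replicate 3 dropped.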

How the data were processed

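Mononuclear cells were isolated from skeletal muscle, RNA was extracted with Trizol and libraries were made with a strand-specific SureSelect kit, per the labels' protocols. The deposited values are CPM with 0.0001 added, read from the values: each library sums to 1000000 plus the added constants over 17030 genes. Partek, DESeq2 and mm10 are named in the submitters' processing notes with no role. The aligner, counting rule and use of strand are not given in the sources used here. Coordinates are the table's, with 1 subtracted from the end.

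The constant was removed. Depth was estimated from the smallest step between low values; 92.9% to 93.9% of values up to 20 reads were whole within 0.05 read, short of the 95% required, so no count test was run. For the members, 298 of 306 values were whole. A count of 0 allows up to 3 reads, 0.225 to 0.740 CPM. Counting errors cover sampling only. Merged exon lengths are from GENCODE M21. Genes with at least 1 CPM in 3 of 6 libraries were tested with limma 3.58.1 (R 4.3.3) on log2(CPM + 1) with a mean-variance trend, and called where the adjusted p fell below 0.05. Adding 1 understates the change of low genes. TMM factors were computed in R. In 5 simulations the fit recovered 42.9% of 2-fold and 81.9% of 4-fold changes, with a mean of 5.4 false calls, so many 2-fold changes would be missed. There, both sizes of change were planted together and noise was drawn separately for each gene. Recovery after adjustment depends on how many genes change, so fewer changes may be recovered in these data, where 1 gene passed. The limma p-values set the group difference against the spread of these libraries within groups, moderated across genes along that trend. Named members were those with an unadjusted p under 0.05, the 12 with the smallest p, the highest of each role, Axin2 and Lef1, and from each pathway list the 2 with the smallest p. Members and lists were chosen with earlier results of these data known. Alternatives changed the constant, filter, scaling, weights and trend, and left out libraries. Overlapping genes were checked for shared exons: Tcf7l1 shares 84 exon bases with Gm15401, which lies on the other strand.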

Additional observations from a re-analysis of the deposited data

How the results depend on the processing

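Across 16 alternatives, 0 of the tested members and 0 of the other pathway genes passed after adjustment, with a lowest member adjusted p of 0.44. The number of genes called among all tested was 1, and 0 to 1 with each library left out; it was 2 with no filter and 2 when the pair of Pax7-CreERT replicate 1 and control replicate 3 was dropped. Members at an unadjusted p under 0.05 numbered 4, against 2 with TMM factors, 7 with array weights, 1 to 6 with each library left out (the lowest without Pax7-CreERT replicate 2, then 2 when Pax7-CreERT replicate 1 was dropped, and the highest without control replicate 3), and 2 with that pair dropped. Of the 21 named members, 14 kept the sign of their fold change under every alternative that could be fitted; Lef1 could not be fitted under the filter on a mean of 2 CPM. The sign turned for 7. Fzd4 was -0.058 with TMM factors, -0.059 with median-of-ratios factors, -0.013 with quantile normalization, -0.072 with array weights, -0.045 without the pair of libraries and -0.11 to 0.18 with each left out. Lgr4 was -0.0067 with TMM and -0.0073 with median-of-ratios factors. Dkk2 was 0.093 with array weights and -0.54 to 0.13 with each library left out. Wif1 was -0.024 with quantile normalization, -0.17 without the pair and -0.32 to 0.45 with each left out. Tcf7l2 was -0.050 without the pair and -0.019 to 0.32 with each left out. Ctnnb1 ran from -0.043 to 0.22 and Sfrp4 from -0.052 to 0.49 with each library left out. The cause was not tested. Where a library was left out, the genes tested were those of the full table. No paired analysis was possible because the labels number no replicates: the numbers used here come from accession order and tie no mouse to another. Depth limits the lowest members: at 1 CPM a library's counting SD was 27.4% to 49.7% of the value.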
